A study of Mus musculus with 2 samples.

Results

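The receptors described here are the G protein-coupled receptors for the small transmitters serotonin, noradrenaline and adrenaline, dopamine, acetylcholine, histamine, glutamate and GABA, as read from the RNA of sensory neuron preparations of mouse dorsal root ganglia (DRG). The rule that picks the members uses gene symbols and no measured value: the serotonin receptors Htr1 to Htr7 without the Htr3 ion channel subunits, the Adra1, Adra2 and Adrb adrenergic receptors, the Drd dopamine receptors, the Chrm muscarinic receptors, the Hrh histamine receptors, the Grm metabotropic glutamate receptors and the Gabbr subunits of the GABA-B receptor. The rule found 45 genes among the 24411 gene symbols of the files, in 62 transcript rows.

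The study asked whether sensory neurons hold antigen-specific antibody after immunization and whether they make it themselves. For RNA-seq, thoracic and lumbar DRG were taken on day 28 from male C57BL/6J mice. The mice were purchased at 6 to 8 weeks of age and were thus older at harvest. Alum-injected mice received 50% alum, an adjuvant, in 200 µl of saline by the intraperitoneal route on days 0 and 14. In alum + KLH-immunized mice 100 µg of keyhole limpet hemocyanin (KLH), a foreign protein antigen, was given with the same alum on the same days. The ganglia were digested, passed over an albumin gradient and depleted of B lymphocytes with beads, and neurons of 10 mice were pooled into 1 library per group. The control library is labelled both as naïve and as alum alone, and it is treated here as alum-injected. All mice of both pools thus received alum, and no pool of untreated mice was analysed here.

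Levels are TPM (the abundance of a transcript per unit of its length, scaled so that each library sums to 1000000), added over the transcripts of a gene. A gene was counted as detected above 3 TPM, the threshold used in the study. Each group has 1 pool, which leaves the spread between mice unmeasured, so no test was made, and each difference below compares 2 libraries, not the treatments. TPM does not hold the number of reads, so the reads behind each value cannot be read from the files. Neuron markers were high in both pools: all 10 were detected, and their summed level was 9592 TPM with alum and 9685 TPM with alum + KLH. Glia were present too, since 5 of 8 Schwann cell and all 6 satellite glia markers were detected, the former summing to 1511 and 1445 TPM and the latter to 1480 and 1365 TPM. Most of the Schwann cell sum came from Pmp22, with 1062 and 1021 TPM, and Sox10, Prx and Mag were undetected. Fewer cells of a type and less RNA per cell cannot be told apart in such pools.

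Receptors of this class do not form ion channels. They act through heterotrimeric G proteins: Gi/o proteins lower cyclic AMP, close presynaptic calcium channels and open potassium channels, Gs proteins raise cyclic AMP, and Gq/11 proteins activate phospholipase C. On primary sensory neurons many of them lie on the central terminals in the spinal cord, where Gi/o-coupled members such as the GABA-B receptor and the Htr1 subtypes restrain transmitter release. Triptan drugs against migraine act on Htr1b, Htr1d and Htr1f, and baclofen acts on the GABA-B receptor.

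Only a minority of the receptor genes was detected. Above 3 TPM were 13 of 45 genes (28.9%), and they were the same 13 in each pool, whereas 47.7% of all genes passed this level in at least one pool. All 13 are encoded by genes of the GABA-B, metabotropic glutamate, serotonin and muscarinic families. No adrenergic, dopamine or histamine receptor reached 3 TPM. The lowest detected members were Htr1b with alum, at 4.67 TPM, and Htr5b with alum + KLH, at 5.90 TPM (5.64 TPM with alum), and the highest undetected members were Htr5a, at 2.45 and 2.65 TPM, and Adra2b, at 2.29 and 2.28 TPM (values are given for alum first and alum + KLH second throughout).

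**Figure D1:**
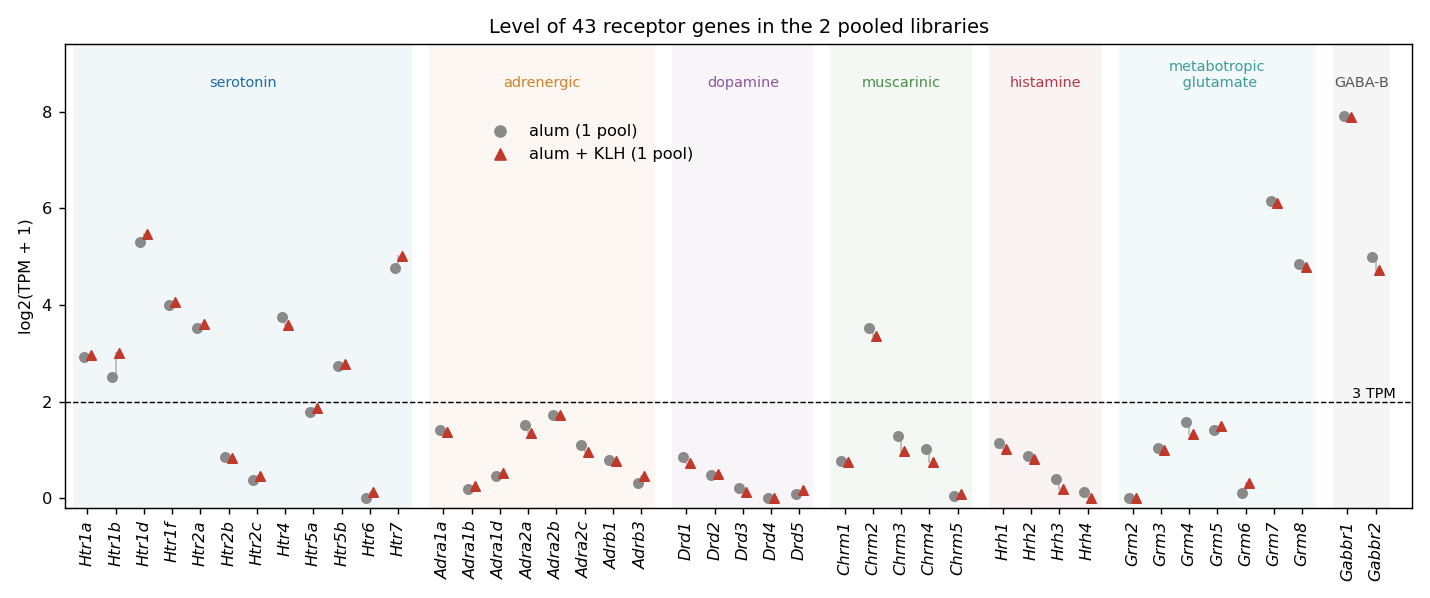
Level of 43 of the 45 receptor genes as log2(TPM + 1) in the alum pool (grey circles) and the alum + KLH pool (red triangles), 1 library each, grouped by receptor family, with a dashed line at 3 TPM. The 13 detected genes lie above the line in both pools, Gabbr1 is highest at 240.8 and 236.7 TPM, and the adrenergic, dopamine and histamine families lie wholly below it.

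GABA-B receptor subunits made up the largest share of the summed receptor RNA, which was 526.1 TPM with alum and 523.0 TPM with alum + KLH. They held 51.6% and 50.1% of it, serotonin receptors 23.4% and 26.01%, and metabotropic glutamate receptors 19.7% and 19.1%. Muscarinic receptors held 2.60% and 2.23%, adrenergic receptors 2.02% and 1.95%, histamine receptors 0.466% and 0.369%, and dopamine receptors 0.268% and 0.244%. The order of the 7 families was the same in both pools. Because Gabbr1 alone outweighed every other member, shares were also computed without it, and serotonin receptors then held 43.1% and 47.5%.

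**Figure D2:**
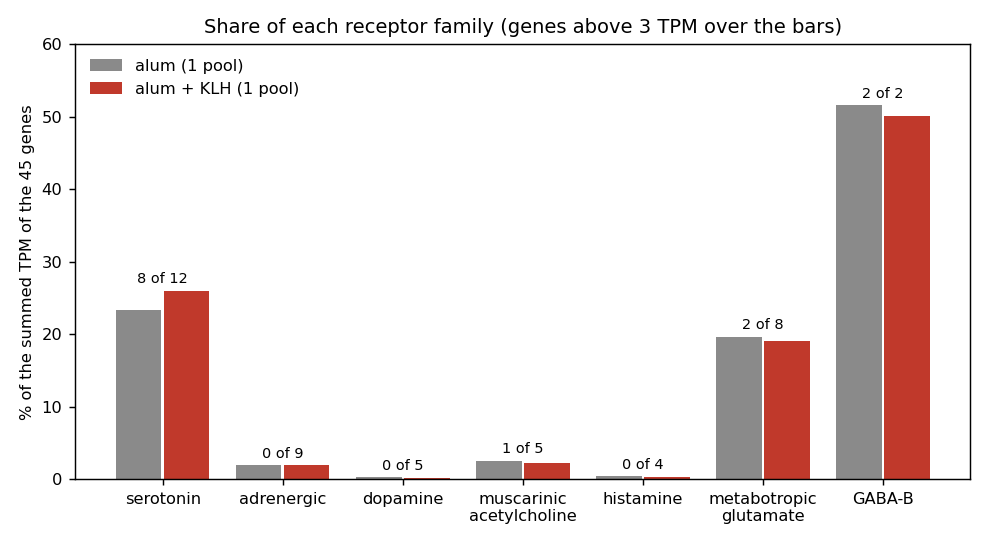
Percent of the summed TPM of the 45 genes held by each receptor family in the alum pool (grey bars) and the alum + KLH pool (red bars), 1 library each, with the number of genes above 3 TPM over the bars. GABA-B subunits held 51.6% and 50.1%, serotonin receptors 23.4% and 26.01%, and the adrenergic, dopamine and histamine bars stay near 0.

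Sorted by the G protein that each receptor is best known to use, 24 members couple to Gi/o, 12 to Gq/11 and 9 to Gs. Of these, 10, 1 and 2 were detected. Gi/o-coupled members held 88.0% and 87.2% of the summed TPM, Gs-coupled members 8.29% and 9.03%, and Gq/11-coupled members 3.73% and 3.75%. Gabbr1 alone gave 240.8 and 236.7 TPM of the Gi/o sums, which were 462.9 and 456.2 TPM. The highest Gi/o-coupled genes were Gabbr1 and Grm7, the highest Gs-coupled genes Htr7 and Htr4, and the highest Gq/11-coupled genes Htr2a and Grm5. Htr5b was counted as Gi/o-coupled, an assignment less well established than the others.

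The most abundant members of the 3 leading families were Gabbr1, Htr1d and Grm7. To show the region from which each is transcribed, the 150 bases just before the start site in RefSeq (GRCm38.p6) are given 5′ to 3′ on the strand of the gene, and capitals mark a GC box, written GGGCGG or CCGCCC. They lie at chr17:37045816-37045965 on the plus strand (Gabbr1), chr4:136423374-136423523 on the plus strand (Htr1d) and chr6:110645448-110645597 on the plus strand (Grm7).
Gabbr1: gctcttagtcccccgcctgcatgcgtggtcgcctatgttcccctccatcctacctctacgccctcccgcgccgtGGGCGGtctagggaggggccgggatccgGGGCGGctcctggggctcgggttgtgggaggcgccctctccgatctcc
Htr1d: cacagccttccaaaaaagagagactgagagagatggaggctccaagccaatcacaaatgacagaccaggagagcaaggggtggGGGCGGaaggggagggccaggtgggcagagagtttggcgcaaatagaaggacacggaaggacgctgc
Grm7: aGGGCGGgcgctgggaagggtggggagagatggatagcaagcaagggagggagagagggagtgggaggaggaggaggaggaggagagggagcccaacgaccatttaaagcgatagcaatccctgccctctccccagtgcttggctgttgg

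Promoter windows were found for 34 of the 45 genes. Over the 250 bases before the start, the number of CpG dinucleotides was 16 for Gabbr1, 9 for Grm7 and 6 for Htr1d, and it reached 41 for Htr7 and 37 for Gabbr2. The median was 8 in the 11 detected members (range 4 to 41) and 13 in the 23 other members (range 1 to 42), so the detected receptors did not have the more CpG-rich starts. Over all 32851 promoter windows of the same length the median was 6. A GC box on either strand stood in 7 of the 11 detected members (63.6%), in 13 of the 23 others (56.5%) and in 32.7% of all windows. Each member has a single window, the one nearest its transcript start, whereas all windows can include several starts of a gene. The window of Chrm4 lies 5060 bases from that start.

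Gabbr1 and Gabbr2 encode the subunits that together form the GABA-B receptor, the first binding GABA and the second carrying the complex to the surface and engaging the G protein. Gabbr1 (chr17:37045966-37075067, plus strand, 23 exons) had 240.8 TPM in the alum pool and 236.7 TPM in the alum + KLH pool. Gabbr2 (chr4:46662305-46991873, minus strand, 19 exons) had 30.7 and 25.3 TPM. The transcript of the first subunit thus stood 7.85 times above that of the second with alum and 9.37 times above it with alum + KLH. Differences between pools are expressed as the log2 of (TPM + 1) with alum + KLH over (TPM + 1) with alum, a scale on which the added 1 TPM pulls low genes towards 0. This ratio was -0.02 for Gabbr1 and -0.27 for Gabbr2. To show what a ratio is worth, its SD over the 500 genes of most similar mean level is set beside it, which describes these 2 libraries and is no replicate error. That SD was 0.18 for each of the 2 genes, so Gabbr2 lay beyond it and Gabbr1 within it.

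Auxiliary Kctd subunits bind Gabbr2 and shape the time course of its signal, and Homer proteins anchor group I metabotropic glutamate receptors. Of 7 such genes 5 were detected and none differed by 1.5-fold, with a median log2 ratio of 0.06. Kctd8 had 96.8 and 101.2 TPM, above both Kctd16 at 71.3 and 68.5 TPM and Gabbr2 itself. Homer1 had 67.6 and 79.5 TPM, a log2 ratio of 0.23.

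Among metabotropic glutamate receptors only the group III members Grm7 and Grm8, which lower transmitter release from nerve terminals, were detected. Grm7 (chr6:110645581-111567230, plus strand) was the second highest member of all, at 70.5 TPM with alum and 68.4 TPM with alum + KLH, a log2 ratio of -0.04. Grm8 (chr6:27275119-28135178, minus strand) had 27.6 and 26.4 TPM and a log2 ratio of -0.06. Both lay within the SD of genes of similar level, 0.15 and 0.17. The other members of group III were low: Grm4 had 2.00 and 1.495 TPM, and Grm6, known from retinal bipolar cells, 0.0721 and 0.247 TPM. Grm5, which couples to Gq/11 and has been studied in pain, was below detection as well, with 1.66 and 1.81 TPM. Of group II, Grm3 had 1.05 and 1.01 TPM and Grm2 was listed at 0 in both pools.

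Serotonin receptors were the family with the most detected genes, 8 of 12. Htr1d (chr4:136423524-136444398, plus strand) led it, with 38.2 TPM in the alum pool and 43.1 TPM in the alum + KLH pool. Htr7 (chr19:35958734-36057507, minus strand), coupled to Gs, followed with 26.3 and 31.3 TPM. Their log2 ratios, 0.17 and 0.24, both exceeded the SD of genes of similar level, 0.11 and 0.18. Htr1f, another triptan target, had 15.1 and 15.7 TPM. Htr4, coupled to Gs, had 12.4 and 11.04 TPM, and Htr2a, a Gq/11-coupled subtype known for raising nociceptor excitability, 10.6 and 11.2 TPM. The log2 ratios of these 3 genes, 0.06, -0.15 and 0.08, were within the SD of genes of similar level, 0.25, 0.23 and 0.33. Htr1a, which is encoded by 1 exon, had 6.54 and 6.80 TPM with a ratio of 0.05, and Htr5b a ratio of 0.06 at the levels given above. Human HTR5B is a pseudogene, so this last transcript has no human counterpart that makes a receptor. Undetected were Htr5a, Htr2b with 0.813 and 0.779 TPM, Htr2c with 0.302 and 0.382 TPM, and Htr6, listed at 0 with alum and at 0.0850 TPM with alum + KLH.

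Htr1b showed the largest ratio of the detected members. Its level was 4.67 TPM in the alum pool and 7.02 TPM in the alum + KLH pool, a log2 ratio of 0.50 against an SD of 0.23 among genes of similar level. The plain quotient of the TPM values was 1.504, while on the scale with 1 TPM added the difference stayed under 1.5-fold. The gene (chr9:81628291-81633828, minus strand) is overlapped by an antisense gene, D430036J16Rik (chr9:81631551-81645156, plus strand). The antisense exons cover 852 of the 1273 bases (66.9%) of the annotated Htr1b transcript. Of its 1243 words of 31 bases, the default word length of kallisto, 64.0% occur in transcripts of other genes when both strands are searched. The nearest RefSeq start lies 1217 bases from the start of this transcript, so these shares may not hold for the transcript row that was quantified. A coding stretch of 100 bases at the edge of this overlap, on the minus strand at chr9:81632220-81632319 (GRCm38), is printed 5′ to 3′ with the 60 bases inside antisense exons in capitals.
Htr1b: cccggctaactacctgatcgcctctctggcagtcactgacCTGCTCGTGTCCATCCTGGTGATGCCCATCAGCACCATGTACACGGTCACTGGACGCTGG

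The libraries were made with a stranded kit, but the strand setting of kallisto is not given in the sources used here. Without it, reads from the stretch that the antisense exons cover cannot be told apart between Htr1b and its antisense partner. D430036J16Rik itself had 12.8 TPM with alum and 12.4 TPM with alum + KLH, a log2 ratio of -0.04. Summed with it, Htr1b gave 17.5 and 19.4 TPM and a log2 ratio of 0.15. No other detected member shared more than 2.40% of its words with other genes (Grm7), and 7 of them shared none.

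Chrm2, the Gi/o-coupled muscarinic receptor best known for slowing the heart, was the only detected muscarinic gene. It had 10.5 TPM with alum and 9.31 TPM with alum + KLH, a log2 ratio of -0.16 against an SD of 0.35 among genes of similar level. Chrm3, known for driving glands and smooth muscle, had 1.46 and 0.959 TPM, and Chrm4 had 1.01 and 0.671 TPM. Chrm1 had 0.710 and 0.676 TPM and Chrm5 0.0376 and 0.0647 TPM. Each of these 4 was lower than Chrm2 in both pools.

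Adrenergic receptors, through which sympathetic transmitter acts, formed a family of 9 genes with no detected member. The highest was Adra2b, given above, and below it were Adra2a with 1.85 and 1.56 TPM and Adra1a with 1.64 and 1.58 TPM. Adra2a and Adra2c, the targets of clonidine in pain control, thus lay below 3 TPM, the latter with 1.147 and 0.932 TPM. Adrb1 had 0.720 and 0.706 TPM, Adra1d 0.375 and 0.437 TPM, Adrb3 0.244 and 0.373 TPM, and Adra1b 0.138 and 0.186 TPM. The whole family summed to 10.6 TPM with alum and 10.2 TPM with alum + KLH, less than Htr4 alone in each pool.

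Histamine receptors were lower still. Hrh1, which is known from itch neurons, had 1.21 and 1.02 TPM, Hrh2 0.838 and 0.757 TPM, Hrh3 0.317 and 0.146 TPM, and Hrh4 0.0864 TPM with alum and 0 with alum + KLH. Dopamine receptors had the lowest sum, 1.41 and 1.27 TPM over 5 genes. In this family Drd1 had 0.809 and 0.655 TPM, Drd2 0.386 and 0.405 TPM, Drd3 0.151 and 0.0865 TPM and Drd5 0.0631 and 0.126 TPM, while Drd4 was listed at 0 in both pools. In all, 20 of the 32 undetected members were under 1 TPM in both pools, and the other 12 lay between 1 and 3 TPM in at least one pool.

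No detected member differed by 1.5-fold between the pools in either direction. Among all 11648 genes that passed 3 TPM in either pool, 1.00% were at least 1.5-fold higher with alum + KLH and 1.55% at least 1.5-fold lower, so that a count of 0 among 13 genes is near this background. These shares are 117 and 181 genes, and only 31 and 80 remained when rows of microRNAs and small nucleolar RNAs were left out. Such rows were kept among the genes of similar level as well. The ratios of the members had a median of 0.05 and an SD of 0.20, and the median over all tested genes was -0.02. The ratio was above 0 in 7 of the 13, beside 43.6% of all tested genes. The 7 were all serotonin receptors, every detected one but Htr4, and the 5 detected genes of the other families were all below 0. This split moved with the scaling of the libraries: relative to Hprt, a housekeeping gene at 989.3 and 1049.1 TPM, only 3 of the 8 serotonin receptors stayed above 0, whereas 7 did when the libraries were scaled to a median ratio of 1. The 5 others were below 0 under both scalings. Those 3 serotonin receptors were Htr1d, Htr7 and Htr1b, which together with Gabbr2 were the 4 of 13 genes beyond the SD of genes of similar level. Of all tested genes 17.1% lay beyond theirs, a comparison that was not tested.

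**Figure D3:**
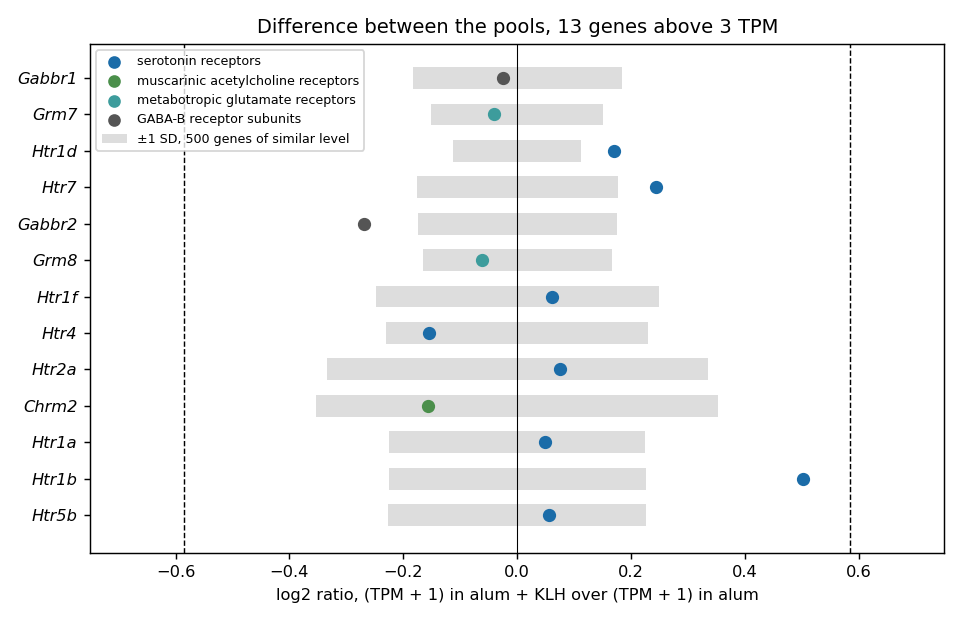
Ratio of the pools, alum + KLH over alum, as log2 of (TPM + 1), for the 13 genes above 3 TPM, ordered by level, coloured by family, with grey bars for ±1 SD over the 500 genes of most similar mean level and dashed lines at 1.5-fold. Htr1b at 0.50, Htr7 at 0.24, Htr1d at 0.17 and Gabbr2 at -0.27 lie outside their bars and no gene passes a dashed line; there is 1 library per group.

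**Figure D4:**
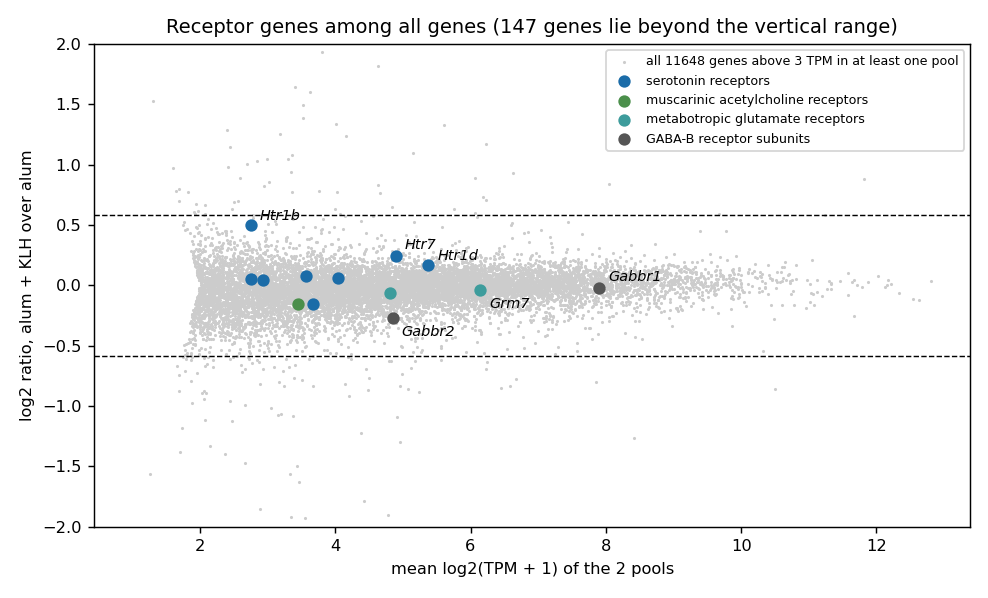
Log2 ratio between the pools against mean log2(TPM + 1) for all 11648 genes that passed 3 TPM in either pool (small grey points) and the 13 detected receptor genes (large points coloured by family), with dashed lines at 1.5-fold. The receptors lie within the band of the other genes, Htr1b nearest its upper edge at 0.50, and 147 genes beyond a log2 ratio of 2 are not drawn.

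Because 34 members have 1 transcript row and 11 have several, the rows were also read apart. Htr1d, the only detected member with several rows, was carried mainly by NM_008309, with 22.9 TPM (59.9% of the gene) in the alum pool and 29.0 TPM (67.2%) in the alum + KLH pool. NM_001285484 had 7.49 and 5.11 TPM, NM_001285482 had 7.05 and 7.71 TPM, and NM_001285483 had 0.781 and 1.31 TPM. The rows thus moved in unlike directions. NM_008309 and NM_001285484 map to the same annotated transcript, so the sequences of these rows were not compared with each other. Of the 31-base words of NM_001285482 and NM_001285483, 98.8% and 98.6% occur in another row of the gene. Few reads of NM_001285482 and NM_001285483 could thus have been told apart from those of the other rows.

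In an undetected member the leading row could change altogether. Drd1 stood on NM_010076 with alum (0.809 TPM) and on NM_001291801 with alum + KLH (0.655 TPM), 2 rows that map to the same annotated transcript. For Hrh3, 89.0% and 91.4% of the level lay on NR_102309, a row listed as noncoding. Hrh2 had its larger part on NM_008286, with 0.538 and 0.586 TPM, and Adra1a on NM_001271760, with 1.44 and 1.24 TPM. Both Hrh3 rows map to the same annotated transcript, as do both Hrh2 rows, and as do NM_001271760 and NM_013461 of Adra1a. The sequences of such rows were not compared with each other, so how the level divides between them is uncertain.

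**Figure D5:**
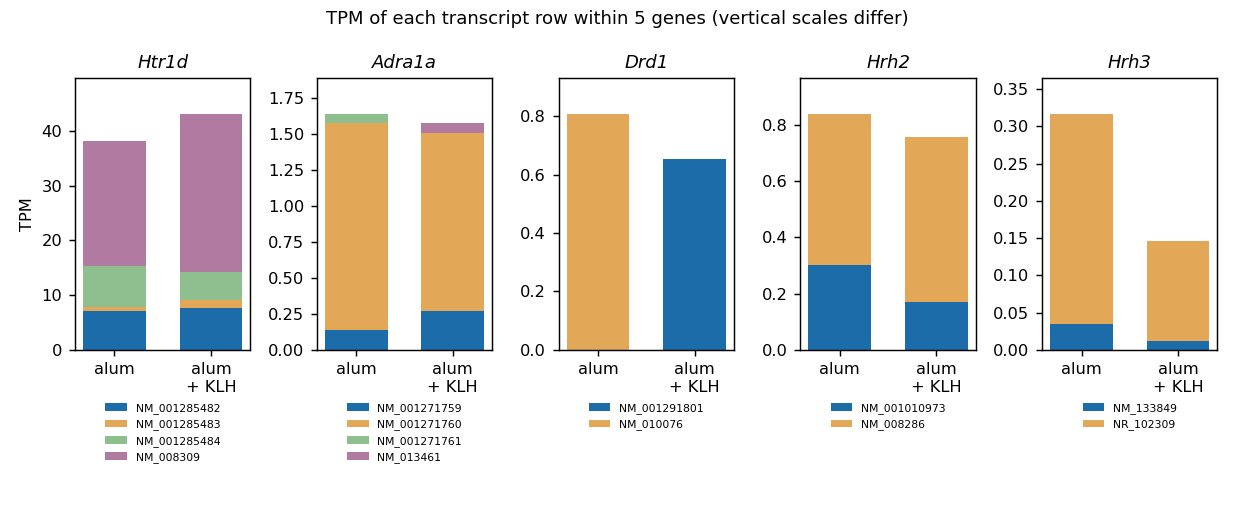
TPM of each transcript row, stacked within the gene, in the alum and the alum + KLH pool (1 library each) for 5 of the genes with several rows; the vertical scales differ. Htr1d kept the same leading row, NM_008309, while Drd1 stood on one row with alum and on another with alum + KLH.

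Genes that act downstream of these receptors were detected almost throughout. All 10 G alpha subunit genes were above 3 TPM, none differed by 1.5-fold, and 1 of them had a ratio above 0, Gnai1 with 259.3 and 300.3 TPM (log2 ratio 0.21). The median log2 ratio of the 10 was -0.13. Gnas, which encodes the alpha subunit of Gs, was highest with 1748 and 1668 TPM, followed by the Go subunit gene Gnao1 with 568.3 and 498.6 TPM. Receptor kinases and arrestins, which end receptor signalling, were detected in 7 of 7 cases with a median of -0.11, led by Grk4 with 89.3 and 96.3 TPM and Arrb1 with 76.9 and 71.4 TPM. Of 6 genes for channels that G proteins open or inhibit 3 were detected. They were the potassium channel Kcnj3 with 58.3 and 64.6 TPM, and the calcium channels Cacna1b with 42.7 and 41.2 TPM and Cacna1a with 13.95 and 13.96 TPM. The other potassium channel genes of this list, Kcnj5, Kcnj6 and Kcnj9, were undetected, the highest being Kcnj6 with 1.83 and 2.14 TPM.

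The genes that make and clear the ligands were read in the same way. Among 17 genes of amine and acetylcholine synthesis and transport 6 were detected, with a median log2 ratio of 0.02, the highest being Th, the rate-limiting enzyme of catecholamine synthesis, with 16.6 and 14.4 TPM and the vesicular transporter Slc18a2 with 14.1 and 14.8 TPM. All 6 genes of amine and acetylcholine breakdown were detected, with a median of -0.03, led by Maoa with 113.5 TPM in each pool and the histamine methyltransferase Hnmt with 55.5 and 60.1 TPM. Of 16 genes of GABA and glutamate handling 10 were detected, with a median of 0.02. Slc17a6, which loads glutamate into vesicles, had 465.0 and 488.2 TPM. The GABA-synthesizing Gad1 and Gad2, by contrast, had 1.45 and 1.31 TPM and 0.770 and 0.474 TPM, and the vesicular GABA transporter Slc32a1 was listed at 0. None of the detected genes of these lists differed by 1.5-fold.

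Other cell types that the preparation could hold were traced by their markers. Macrophage markers summed to 7.52 and 6.89 TPM with 0 of 8 detected, and endothelial markers to 9.48 and 6.58 TPM with 1 of 6 detected (Cdh5). Of 6 smooth muscle and pericyte markers, Rgs5 alone was detected, at 172.2 and 162.4 TPM, while the contractile genes Acta2 and Myh11 had at most 1.07 TPM. Fibroblast markers summed to 88.1 and 88.4 TPM with 3 of 6 detected, led by Dcn with 63.8 and 62.6 TPM. Of 8 mast cell markers Kit alone was detected, with 58.1 and 56.2 TPM, and the tryptases Tpsb2 and Tpsab1 were listed at 0. Spinal cord glia markers summed to 19.4 and 19.6 TPM with 2 of 6 detected (Aqp4 and Slc1a2). The neuron marker Rbfox3 (60.8 and 44.6 TPM, log2 ratio -0.44) and the satellite glia marker Apoe (131.9 and 91.5 TPM, log2 ratio -0.52) were lower with alum + KLH by more than any detected receptor. Each had the lowest ratio of its own list. Over the 10 neuron markers the median log2 ratio was -0.06, with 4 above 0. Over the 6 satellite glia markers the median was -0.04, with 0 above 0. The part of Rbfox3 and Apoe in the receptor ratios was not tested. Which cells carried each receptor transcript was not tested either.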

How the data were processed

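RNA-seq was analysed from 2 libraries, 1 per group, each from 10 pooled mice. The authors prepared stranded mRNA libraries, trimmed reads with cutadapt and deposited TPM values that kallisto assigned to RefSeq transcripts of the mm10 build. Tool versions are not given in the sources used here. Read counts cannot be recovered from TPM, so no interval or limit of detection was computed.

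TPM was summed per gene symbol over 35034 transcript rows (Python 3.11.15, numpy 2.4.6, pandas 2.3.3, matplotlib 3.10.9), and log2 ratios were formed with a pseudocount of 1 TPM. No test was made, since each group has 1 library. The ratio was checked on simulated data, with changes larger than any of the detected receptors. That check does not bear on the smaller ratios given here. Positions came from GENCODE M21 (GRCm38, the assembly of mm10) and promoters from RefSeq (GRCm38.p6), and words of 31 bases were searched on both strands of annotated transcripts.

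The genes named are the members and, for each pathway list, the 2 genes highest by mean TPM and any past 1.5-fold, apart from a few that are not reported here; further list genes, D430036J16Rik among them, were chosen after their values were seen. The members and lists were chosen with earlier results of these data known. Alternatives were thresholds of 1 and 10 TPM or none, pseudocounts of 0.1 and 0.5 TPM, a fold of 2, the highest transcript of each gene, rescaling to a median ratio of 1, TPM relative to Hprt, and leaving out rows of microRNAs and small nucleolar RNAs. Use of no pseudocount and the sum of Htr1b with its antisense gene were added after seeing the data.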

Additional observations from a re-analysis of the deposited data

How the results depend on the processing

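Among the detected receptors, 9 of 13 kept the sign of their log2 ratio in every alternative run on them, the exceptions being Htr1f, Htr2a, Htr1a and Htr5b, which fell below 0 relative to Hprt. Of 284 ratios of single receptors computed under the alternatives, 15 moved by more than the SD of similar genes. For detected genes these were Htr1d on its highest row (0.33) and Htr1b summed with its antisense gene (0.15). At 1 TPM, 25 receptor genes were detected with alum and 22 with alum + KLH. Without a pseudocount, an alternative chosen after seeing the data, 1 receptor (Htr1b) was 1.5-fold higher with alum + KLH, at a quotient of 1.504. The median ratio of the receptors ranged from -0.03 to 0.07. Over all genes, those at least 1.5-fold higher and lower numbered 117 and 181, and 43 and 82 above 10 TPM, or 31 and 80 without the 1470 small RNA rows. The lower ones numbered 274 on the highest transcript of each gene and 110 at a fold of 2. The smaller counts rest on fewer genes or a larger fold. Small RNA rows were 1470 of 35034 rows, so leaving them out lowered the counts by more than their share of rows. The cause of these changes was not tested further. Higher genes made up 39.3% of those past 1.5-fold, 41.9% after rescaling to a median ratio of 1 and 31.3% relative to Hprt. These scalings changed log2 TPM in the alum + KLH pool by 0.02 and -0.08. With 1 TPM added, the ratios of low genes shifted by less. No paired analysis was possible because each group has 1 pool, and for the same reason no library could be left out. Without read counts, no counting error can be given for any value.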
